A study of Homo sapiens with 15 samples.

Results

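The genes described here code for proteins that sense damaged DNA, halt the cell cycle and repair the lesion. They were taken from a list of 42 damage signalling and repair genes, and each was read from the 1 probe set that carries its symbol alone in the probe annotation, with probe sets named _x_at used only as a last choice and the brightest taken where several remained. This gave 37 of the 42 genes, out of 19775 genes with such a probe set in all. The filter on low signals kept all 37, and it kept 16216 of the 19775. The other 5 genes of the list are not analysed here, 1 of them because its probe sets also carry the symbol of another gene. RNA came from A549, an epithelial line from a human lung adenocarcinoma, kept in F12K medium with charcoal-treated serum, and was hybridized to 15 Affymetrix arrays, 3 for each of 5 groups. These were non-treated cells, cells given dexamethasone (a synthetic glucocorticoid) for 6 hours, and cells given dexamethasone for 6 hours together with 48 hours of mifepristone (an antagonist of the glucocorticoid receptor), of a match polyamide or of a mismatch polyamide. Polyamides are synthetic molecules that bind DNA in its minor groove, and the series title concerns one specific for the GRE, the glucocorticoid response element to which the receptor binds. The sources used here give no doses, so it is not known whether match and mismatch polyamide were set side by side at the same dose. The labels name no vehicle arm of 48 hours and do not say whether the arrays of a group came from separate cultures, so p-values measure the spread between arrays, which may be technical.

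As background, breaks in both DNA strands are held and trimmed by the MRE11, RAD50 and NBN complex, signalled by the kinase ATM, and closed either by end joining, in which the XRCC5 and XRCC6 ring loads the kinase PRKDC, or by homologous recombination, in which BRCA1, BARD1 and PALB2 act. Stalled replication forks are signalled by the kinase ATR, crosslinks between strands are handled by the Fanconi anaemia proteins, bulky lesions by nucleotide excision, and small base lesions by base excision. Transcripts of many of these genes vary with the cell cycle, and A549 cells carry wild-type p53.

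The arrays were of like quality by correlation, with r of 0.978 to 0.985 for pairs within a group and 0.950 to 0.983 for pairs between groups on the log2(signal + 16) scale, but their trimmed mean signals as deposited ran from 86.8 to 146. Signals below are therefore quantile-normalized signals on the linear scale, which have no unit, and changes are differences of log2(signal + 16), in which a change at low signal looks smaller than it is. Differences were tested with limma over all probe sets tested, and a gene was called higher or lower at an adjusted p under 0.05. Markers of epithelial cells were high on every array, with KRT8, KRT18 and KRT19 at or above the 93.6th percentile of each array and CDH1 and EPCAM at or above the 78.5th. Of the markers of leukocytes, the median percentile over arrays ran from 24.9 for LYZ to 52.4 for CD3E, and of those of fibroblasts 1 of 6, COL1A1, lay higher than that at 79.6. For endothelial cells the median percentiles were 63.0 for PECAM1, 20.3 for VWF and 16.4 for CDH5. Of the markers used for alveolar type 2 cells, SFTPC and SFTPB had median percentiles of 47.6 and 48.8 and NKX2-1 one of 8.37. Among the 37 genes the lowest median percentiles were those of RAD52 (60.9) and ERCC6 (63.1). In such bulk samples fewer cells of a state and less RNA per cell cannot be told apart.

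Promoter sequences from RefSeq on GRCh38.p14 were matched by symbol for 32 of the 37 genes, each with 250 bases before the annotated start and 50 after it. Those of 5 genes are shown. ATM, XRCC4 and BRIP1 fell most and CHEK2 rose most with the match polyamide, as described further on, and PARP2 is the 1 gene called with it whose window holds a glucocorticoid half-site. Capitals mark the motifs searched for on both strands, which were the glucocorticoid half-site AGAACA, the CCAAT box (ATTGG when it is read on the other strand) and the 2 E2F sites TTTGGCGC and TTTCCCGC.
ATM: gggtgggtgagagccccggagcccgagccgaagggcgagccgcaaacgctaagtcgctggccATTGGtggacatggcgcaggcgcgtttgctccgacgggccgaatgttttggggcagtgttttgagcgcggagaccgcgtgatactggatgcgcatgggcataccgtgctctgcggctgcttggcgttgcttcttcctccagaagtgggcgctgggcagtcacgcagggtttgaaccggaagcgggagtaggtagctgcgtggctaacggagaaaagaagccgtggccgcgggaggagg
XRCC4: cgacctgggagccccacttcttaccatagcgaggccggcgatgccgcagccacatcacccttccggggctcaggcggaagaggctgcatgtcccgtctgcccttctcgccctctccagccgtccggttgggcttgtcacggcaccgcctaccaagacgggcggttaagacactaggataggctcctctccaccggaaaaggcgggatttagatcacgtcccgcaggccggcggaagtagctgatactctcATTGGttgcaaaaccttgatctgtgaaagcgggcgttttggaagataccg
BRIP1: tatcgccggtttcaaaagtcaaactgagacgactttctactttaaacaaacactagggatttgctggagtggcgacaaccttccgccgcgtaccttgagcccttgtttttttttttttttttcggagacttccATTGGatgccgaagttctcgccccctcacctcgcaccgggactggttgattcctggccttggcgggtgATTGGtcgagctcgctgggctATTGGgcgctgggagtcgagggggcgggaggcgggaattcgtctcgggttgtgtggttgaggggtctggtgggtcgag
CHEK2: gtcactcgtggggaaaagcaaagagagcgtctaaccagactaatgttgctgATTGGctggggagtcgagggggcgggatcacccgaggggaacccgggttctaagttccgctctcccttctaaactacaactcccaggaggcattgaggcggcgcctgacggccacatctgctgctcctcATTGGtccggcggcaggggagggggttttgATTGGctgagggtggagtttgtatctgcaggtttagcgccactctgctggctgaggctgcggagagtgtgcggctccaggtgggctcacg
PARP2: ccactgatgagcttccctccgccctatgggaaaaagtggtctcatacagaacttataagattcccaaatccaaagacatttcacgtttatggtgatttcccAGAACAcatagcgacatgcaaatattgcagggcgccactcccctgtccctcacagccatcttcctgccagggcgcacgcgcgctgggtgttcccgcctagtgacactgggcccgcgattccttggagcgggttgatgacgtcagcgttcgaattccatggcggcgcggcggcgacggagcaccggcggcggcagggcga
The ATM window is chr11:108222817-108223116 on the plus strand and holds 1 CCAAT box, whose first base lies 188 bases before the start. The XRCC4 window, chr5:83077297-83077596 on the plus strand, holds 1 CCAAT box that begins at the start itself. The BRIP1 window, chr17:61863479-61863778 on the minus strand, holds 3, at 117, 49 and 28 bases before the start. The CHEK2 window, chr22:28741771-28742070 on the minus strand, also holds 3, at 199, 70 and 40 bases before the start. The PARP2 window, chr14:20343385-20343684 on the plus strand, holds the half-site AGAACA 149 bases before the start and no CCAAT box.

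Over all 32 matched genes, AGAACA was found in 4 promoters (12.5%), those of OGG1, PARP1, PARP2 and LIG4, against 14.8% of 35116 promoters in the table. By the call with match polyamide, 1 of 7 promoters of higher genes, 0 of 8 of lower genes and 3 of 17 of the rest held it. CCAAT was found in 16 of the 32 promoters (50%), against 34.6% of all, and in 5 of the 7, 3 of the 8 and 8 of the 17. The E2F site TTTGGCGC stood in the promoter of XRCC6 alone among these genes (0.652% of all promoters) and TTTCCCGC in that of MSH6 alone (1.63% of all). These are matches of letters in a window of 300 bases, and sites farther away were not searched.

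Dexamethasone alone was compared with non-treated cells first, to see what 6 hours of glucocorticoid does to these genes. None of the 37 passed the test in either direction, while 3.23% of all genes tested were called higher and 3.63% lower. The members' changes nevertheless lay mostly below 0, with 28 of 37 negative, against 9366 of the 16216 genes tested, and a median of -0.13 against -0.04 over all genes. At an unadjusted p under 0.05 by limma 10 were lower and 0 higher, where 1794 and 1145 of all genes were. In 15 of the 37 (40.5%) every dexamethasone array lay below every non-treated array, against 2426 of the 16216 genes tested (15%). The genes nearest to the threshold were FANCL, the ubiquitin ligase of the Fanconi pathway, PARP2, a sensor of strand breaks, and MSH6, a mismatch recognition subunit. FANCL signals were 714, 722 and 644 in non-treated cells and 582, 512 and 564 with dexamethasone. These 2 sets did not overlap, and the difference was -0.32 (SE 0.10, adjusted p = 0.0691). PARP2 differed by -0.27 (SE 0.08, adjusted p = 0.0822) and MSH6 by -0.20 (SE 0.06, adjusted p = 0.0910). FANCL passed the test without the third match array (adjusted p = 0.0310) or the third mifepristone array (0.0367), and MSH6 passed it without the third dexamethasone array (-0.28, adjusted p = 0.00662).

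Mifepristone was added to dexamethasone to block the receptor, and 1 of the 37 genes was then higher than with dexamethasone alone by limma and 0 were lower, where 2.55% of all genes were higher and 2.78% lower. At an unadjusted p under 0.05 by limma, 3 were higher and 1 lower, where 1374 and 1173 of all 16216 genes were. The gene was CHEK1, the checkpoint kinase that ATR activates. Its signals were 279, 251 and 254 with dexamethasone and 318, 352 and 341 with mifepristone added, with 331, 277 and 286 in non-treated cells. The mifepristone arrays lay above all dexamethasone arrays, and the difference was 0.35 (SE 0.09, 95% interval 0.15 to 0.55, adjusted p = 0.0448). The 3 other tested probe sets of CHEK1 had the same sign but none was called, while the mean of its probe sets kept the call. CHEK1 did not pass without any 1 of the dexamethasone or mifepristone arrays, at adjusted p from 0.0545 without the first dexamethasone array to 0.177 without the second mifepristone array, nor without the third non-treated array (0.0572) or the first or second mismatch array (0.0553 and 0.0532). FANCL had a difference of 0.27 (adjusted p = 0.171) and passed without the third mifepristone array (0.38, adjusted p = 0.0393). XRCC4 had a difference of 0.35 (adjusted p = 0.253), with arrays that did not overlap. The mifepristone comparison and the one before it share the dexamethasone arrays, so opposite signs in them are not independent.

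The match polyamide comparison asked what a ligand aimed at the response element does in cells that also received dexamethasone. With match polyamide 7 of the 37 genes (18.9%) were higher than with dexamethasone alone and 12 (32.4%) lower, where 21.6% of all genes were higher and 17.6% lower. With mismatch polyamide 9 (24.3%) were higher and 5 (13.5%) lower, where 18.0% and 11.9% of all genes were. In the direct comparison of match with mismatch, 3 (8.11%) were higher and 10 (27.0%) lower, where 9.48% and 13.6% of all genes were. Median changes were -0.05, 0.10 and -0.10 for the 37 genes and 0.05, 0.07 and -0.02 for all genes. Both polyamide groups were set against the same 3 dexamethasone arrays. By pattern, 4 genes were lower with both polyamides (ATM, XRCC4, XRCC5 and PRKDC), 5 were higher with both (CHEK2, PALB2, PARP2, MSH6 and APEX1), and 3 were lower with match and higher with mismatch (FANCI, FANCL and ERCC1). Another 14 genes were called in none of the 3 comparisons by the probe set used, among them BRCA1, CHEK1, TP53BP1, PARP1 and XRCC1. How many of all genes show each of these patterns was not counted, so the patterns only describe the 37 genes.

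These counts depended on how the arrays were scaled. With spike-in scaling the balance with match turned to 9 higher and 4 lower, where 25.9% of all genes were higher and 7.91% lower. The falls no longer called were those of ATR, PRKDC, RAD50, BARD1, WRN, FANCI, FANCL and ERCC1, at -0.42 (PRKDC) to -0.03 (FANCL). On signals as deposited 3 were higher and 6 lower with match, where 14.2% of all genes were higher and 11.1% lower. Not called there were the falls of RAD50, BARD1, WRN, FANCI, FANCL and ERCC1 and the rises of MSH6, APEX1, ERCC5 and XRCC6. With mismatch, the falls of XRCC4 and PRKDC were not called on signals as deposited (-0.53 and -0.47, adjusted p = 0.0647 and 0.0825), and the rises of PALB2, XPA, APEX1, FANCI and ERCC1 were not called with spike-in scaling (0.33 to 0.51). In match over mismatch, the rises of NBN, PALB2 and RAD51C were called neither with spike-in scaling nor with median centring nor on signals as deposited, and of the 10 falls those of BRIP1, FANCI and FANCL were called with spike-in scaling.

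**Figure D1:**
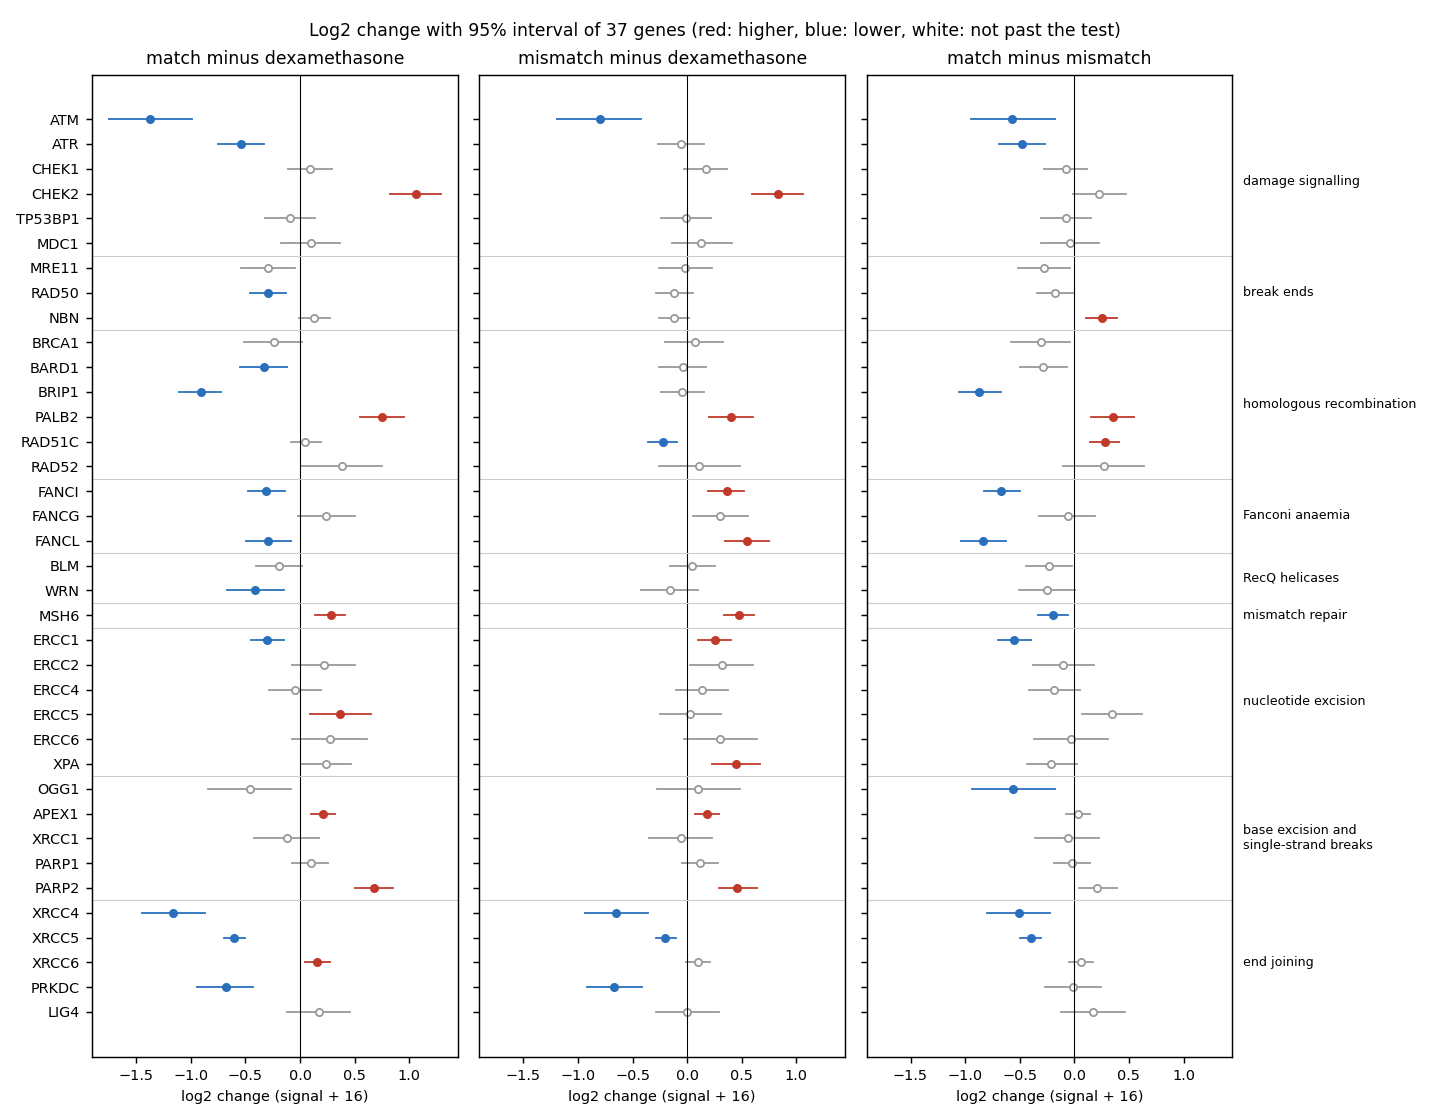
Differences of log2(signal + 16) for the 37 genes, ordered by role, as points with 95% intervals (limma, 3 arrays a group), for match minus dexamethasone, mismatch minus dexamethasone and match minus mismatch. Red points passed the test upward and blue points downward, and ATM at -1.37 and CHEK2 at 1.06 stand at the ends of the match comparison.

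Among the signalling genes the kinases moved in opposite directions. ATM, which signals broken ends, fell with both polyamides, ATR, which signals stalled forks, fell with match, and CHEK2, the checkpoint kinase that ATM phosphorylates, rose with both. Signals of ATM were 121, 98.6 and 87.5 with dexamethasone, 36.5, 36.7 and 17.9 with match and 39.2, 57.4 and 59.4 with mismatch. Every polyamide array lay below every dexamethasone array. The difference was -1.37 with match (SE 0.18, adjusted p = 5.7e-06, 2.58-fold lower on the log2(signal + 16) scale) and -0.80 with mismatch (SE 0.18, adjusted p = 0.00269). Match lay below mismatch by -0.57 (adjusted p = 0.0380), a call lost without the third match array (-0.36, adjusted p = 0.209), the second mismatch array (-0.50, 0.126) or the third (-0.49, 0.137). Of 4 other tested probe sets of ATM, 2 were lower with match, at -0.66 and -0.53, and 2 did not pass, at -0.35 and 0.09. With mismatch none of the 4 passed, at -0.26 to 0.21, and the mean of all ATM probe sets differed by -0.23 (adjusted p = 0.0739).

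CHEK2 signals were 129, 105 and 96.0 with dexamethasone, 237, 261 and 237 with match and 214, 200 and 204 with mismatch, so that both polyamide groups lay above all arrays without polyamide, of which the highest was 145. The rise was 1.06 with match (SE 0.11, adjusted p = 3.1e-07, 2.08-fold) and 0.83 with mismatch (SE 0.11, adjusted p = 1.6e-05). Match minus mismatch was 0.23 with a 95% interval of -0.01 to 0.47 (adjusted p = 0.190), although the arrays did not overlap. ATR signals were 308, 341 and 302 with dexamethasone, 210, 239 and 193 with match and 276, 343 and 294 with mismatch. The match arrays lay below both other sets, by -0.54 against dexamethasone (SE 0.10, adjusted p = 2.7e-04) and by -0.48 against mismatch (adjusted p = 0.00202), while mismatch minus dexamethasone was -0.06 with a 95% interval of -0.27 to 0.15. A second probe set of ATR gave -0.75, -0.73 and -0.02 for the same 3 differences. The adaptor proteins TP53BP1 and MDC1, which bind chromatin around a break, passed in no comparison, with changes of -0.19 to 0.13. CHEK1 differed from dexamethasone by 0.09 with match (95% interval -0.11 to 0.29) and by 0.17 with mismatch (-0.03 to 0.36), without passing. By the mean of its tested probe sets CHEK1 was called higher with both, at 0.21 (adjusted p = 0.0212 by limma) and 0.22 (0.0190).

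In the complex that holds broken ends, RAD50, its coiled-coil ATPase, was lower with match, and no subunit was called with mismatch by the probe set used. By the mean of its tested probe sets RAD50 was lower with mismatch as well (-0.39, adjusted p = 0.00274 by limma). RAD50 signals were 376, 438 and 423 with dexamethasone and 335, 320 and 343 with match, which do not overlap (-0.29, SE 0.08, adjusted p = 0.00716). MRE11, the nuclease subunit, had a difference of -0.29 as well, with a larger spread (SE 0.12, adjusted p = 0.0615), and passed without the second match array (-0.37, adjusted p = 0.0381) or the third mifepristone array (0.0493). NBN, the subunit that binds ATM, was higher with match than with mismatch. Its signals were 784, 726 and 723 with match, 603, 658 and 607 with mismatch and 699, 637 and 700 with dexamethasone, so that the match arrays lay above all dexamethasone arrays while those of mismatch overlapped them. Match minus mismatch was 0.25 (SE 0.07, adjusted p = 0.0134), and 3 of the 4 other tested probe sets of NBN were called the same way, at 0.44, 0.48 and 0.62. The call of NBN was lost without the first match array (adjusted p = 0.0625), the first mismatch array (0.0580) or the third (0.0509).

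In homologous recombination, the search for an intact copy of the sequence, BRIP1, the helicase partner of BRCA1, and PALB2, a scaffold that binds BRCA1, went opposite ways with match. Signals of BRIP1 were 223, 212 and 209 with dexamethasone, 109, 107 and 103 with match and 203, 224 and 195 with mismatch. The match arrays lay far below all others, which spanned 195 to 268 over the other 4 groups, and the mismatch and dexamethasone arrays overlapped. BRIP1 differed by -0.91 with match (SE 0.09, adjusted p = 1.7e-07, 1.88-fold lower), by -0.05 with mismatch (95% interval -0.24 to 0.15) and by -0.87 between the polyamides (SE 0.09, adjusted p = 1.9e-06). By its second probe set BRIP1 was lower with match too, at -1.07, but also lower with mismatch, at -0.58 (adjusted p = 0.00350), and lower in match than in mismatch, at -0.48.

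PALB2 signals were 165, 175 and 195 with dexamethasone, 331, 286 and 317 with match and 237, 246 and 237 with mismatch, 3 ranges that do not overlap. PALB2 was higher by 0.75 with match (SE 0.10, adjusted p = 3.0e-06), by 0.40 with mismatch (SE 0.10, adjusted p = 0.00391) and by 0.35 in match over mismatch (adjusted p = 0.0138, lost without the first match array at 0.0601). BARD1, the partner of BRCA1 in its ubiquitin ligase, was lower with match at 165, 211 and 183 against 239, 249 and 225 (-0.33, SE 0.10, adjusted p = 0.0168). That call was lost without the second dexamethasone array (adjusted p = 0.0664) or the first match array (0.0880), and the 2 other tested probe sets of BARD1 did not pass, at -0.22 and 0.08. BRCA1 itself did not pass, with 271, 399 and 378 with match against 467, 381 and 390 with dexamethasone (-0.24, 95% interval -0.51 to 0.02). RAD51C, a recombination protein, was lower with mismatch only among the polyamide comparisons with dexamethasone, at 472, 478 and 452 against 546, 546 and 553 (-0.22, SE 0.06, adjusted p = 0.0137, and 0.0557 without the third mismatch array). On signals as deposited, with median centring and with spike-in scaling this difference was -0.02, -0.13 and -0.12 and was not called (adjusted p = 0.951, 0.449 and 0.753). RAD51C was higher in match than in mismatch by 0.28 (adjusted p = 0.00413), and under the same scalings by 0.13, 0.13 and 0.43, again without a call (adjusted p = 0.748, 0.493 and 0.112). By the mean of its tested probe sets RAD51C was not called with mismatch (-0.11, adjusted p = 0.182 by limma). By that mean it was called higher with match than with dexamethasone (0.19, 0.0119). RAD52, an annealing protein, had a low signal of 19.7 to 42.1 over the 15 arrays and passed in no comparison by the probe set used. It was called higher with match by the mean of its tested probe sets (0.35, adjusted p = 0.0445 by limma) and with spike-in scaling (0.58, 0.0385).

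Among the Fanconi anaemia genes, FANCI and FANCL were called in opposite directions with the polyamides by the probe set used. How many of all genes show this pattern was not counted. FANCI, a subunit of the clamp that is ubiquitinated at crosslinks, and FANCL, the ligase that ubiquitinates it, were lower than dexamethasone with match and higher with mismatch. FANCI signals were 803, 775 and 783 with dexamethasone, 629, 662 and 605 with match and 956, 1106 and 980 with mismatch, and the 3 ranges do not overlap. The differences were -0.31 with match (SE 0.08, adjusted p = 0.00471), 0.36 with mismatch (SE 0.08, adjusted p = 0.00236) and -0.67 between the polyamides (SE 0.08, adjusted p = 6.6e-06). Its 2 other tested probe sets did not pass with match, at -0.22 and 0.06, and 1 of them was lower in match than in mismatch, at -0.37. By the mean of its tested probe sets FANCI was called neither with match (-0.16, adjusted p = 0.149) nor with mismatch (0.21, 0.0650). The fall of FANCI with match was -0.26 on signals as deposited (adjusted p = 0.296) and -0.05 with spike-in scaling (0.852), not called in either.

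FANCL signals were 582, 512 and 564 with dexamethasone, 472, 501 and 383 with match and 784, 818 and 847 with mismatch, again without overlap. Non-treated cells lay between the last 2 groups at 644 to 722. FANCL differed by -0.29 with match (SE 0.10, adjusted p = 0.0292), by 0.55 with mismatch (SE 0.10, adjusted p = 2.5e-04) and by -0.84 between the polyamides (SE 0.10, adjusted p = 4.4e-06, 1.79-fold). The fall with match was lost without the first dexamethasone array (-0.25, adjusted p = 0.105), the third (-0.27, 0.0804) or the third match array (-0.18, 0.192), on signals as deposited (-0.24, 0.384) or with spike-in scaling (-0.03, 0.918), whereas the rise with mismatch and the direct difference were called under every alternative run. FANCG, a core complex scaffold, did not pass, with 0.24 for match (95% interval -0.02 to 0.50) and 0.30 for mismatch (0.05 to 0.56, adjusted p = 0.0842). It passed with match without the first match array (0.35, adjusted p = 0.0410), and with mismatch without the second match array (0.0225).

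**Figure D2:**
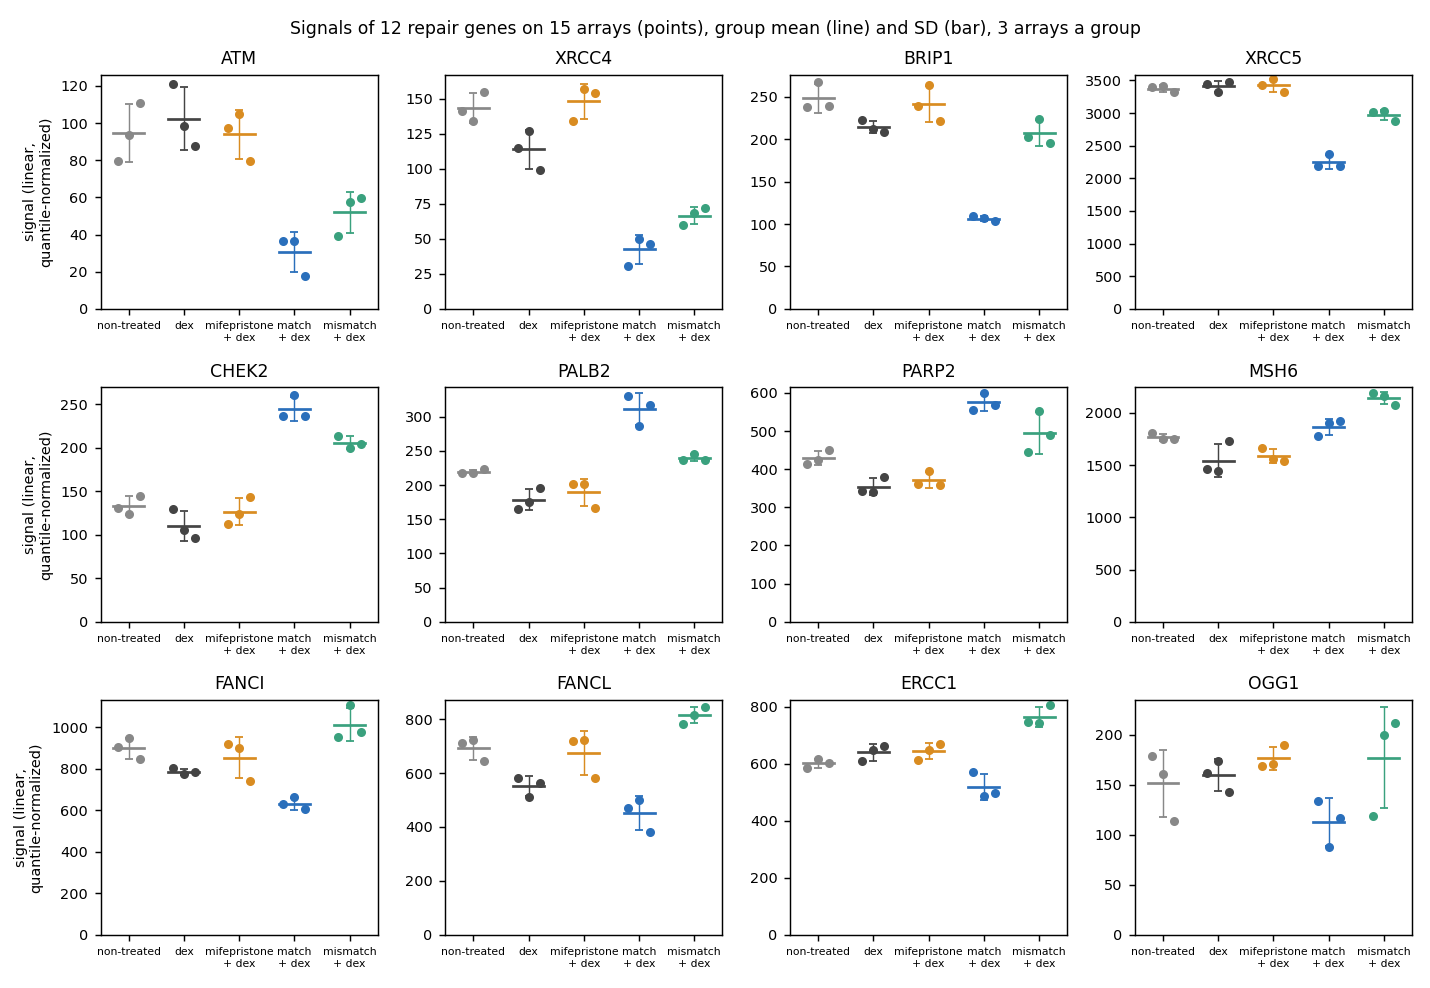
Quantile-normalized signals (linear scale, each axis from 0) of 12 of the genes on the 15 arrays as points, with the group mean as a line and the SD as a bar, 3 arrays a group. FANCI, FANCL and ERCC1 have match arrays below and mismatch arrays above the dexamethasone arrays, while BRIP1 by the probe set shown is low on the match arrays alone, at 103 to 109.

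WRN, a RecQ helicase that unwinds repair intermediates, was lower with match at 69.8, 86.9 and 63.9 against 97.0, 114 and 96.2 with dexamethasone. These arrays do not overlap (-0.41, SE 0.12, adjusted p = 0.0157), and without 1 array the call was lost in 2 cases, that of the second dexamethasone array (adjusted p = 0.0820) and that of the third match array (0.0788). BLM, the RecQ helicase that dissolves joined DNA molecules, did not pass (-0.19, 95% interval -0.40 to 0.02). MSH6, the mismatch recognition subunit, was higher with both polyamides, at 1782, 1900 and 1925 with match and 2191, 2164 and 2074 with mismatch against 1459, 1447 and 1727 with dexamethasone. Neither polyamide group overlapped the dexamethasone arrays, and non-treated cells had 1746 to 1805, so that all 3 mismatch arrays and 2 of the 3 match arrays exceeded every non-treated array. The rise of MSH6 was 0.28 with match (SE 0.06, adjusted p = 0.00184) and 0.47 with mismatch (SE 0.06, adjusted p = 1.2e-05), and match lay below mismatch by -0.20 (adjusted p = 0.0379). That last call was lost without the first or second match array (adjusted p = 0.137 and 0.0633) or the first or second mismatch array (0.118 and 0.101).

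In nucleotide excision, ERCC1, the partner of the nuclease ERCC4, was lower with match and higher with mismatch, as FANCI and FANCL were. ERCC1 signals were 608, 647 and 663 with dexamethasone, 569, 488 and 497 with match and 746, 743 and 806 with mismatch, with no overlap. The differences were -0.30 with match (SE 0.07, adjusted p = 0.00281), 0.25 with mismatch (SE 0.07, adjusted p = 0.0134) and -0.55 between the polyamides (SE 0.07, adjusted p = 1.7e-05). A second probe set of ERCC1 was called in the same directions, at -0.39, 0.36 and -0.76, and the other one did not pass, at -0.27, -0.18 and -0.09. The fall of ERCC1 with match was lost on signals as deposited (-0.25, adjusted p = 0.338) and with spike-in scaling (-0.04, 0.902), where the rise with mismatch was lost too (0.47 and 0.37, adjusted p = 0.0529 and 0.202). That rise was also lost without the first dexamethasone array (adjusted p = 0.0654) or the third mismatch array (0.0664), and by the mean of its tested probe sets (0.15, 0.144). XPA, which verifies the lesion, was higher with mismatch at 204, 248 and 213 against 153, 145 and 176 (0.45, SE 0.11, adjusted p = 0.00360), and its match arrays, at 182 to 202, lay above those of dexamethasone without passing (0.24, adjusted p = 0.0946). ERCC5, the nuclease that cuts on the other side of the lesion, was higher with match at 150, 167 and 134 against 112, 107 and 117 (0.37, SE 0.13, adjusted p = 0.0389). This call was lost without any 1 of the dexamethasone arrays (adjusted p = 0.0794, 0.111 and 0.0584) or the first or second match array (0.0746 and 0.152). ERCC5 passed in match over mismatch without the second mismatch array (0.45, adjusted p = 0.0434). The helicase ERCC2, the nuclease ERCC4 and the transcription-coupled factor ERCC6 passed in no comparison, with changes of -0.19 to 0.32 between polyamide and dexamethasone arrays or between polyamides.

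Of the genes for base excision and nicked strands, PARP2 and APEX1 were higher with both polyamides. PARP2, which adds ADP-ribose chains at breaks, had signals of 342, 341 and 379 with dexamethasone, 556, 601 and 568 with match and 444, 553 and 489 with mismatch. Both polyamide groups lay above the dexamethasone arrays and did not overlap each other. PARP2 was higher by 0.68 with match (SE 0.08, adjusted p = 2.2e-06) and by 0.46 with mismatch (SE 0.08, adjusted p = 3.3e-04), and match minus mismatch was 0.21 (95% interval 0.04 to 0.39, adjusted p = 0.0941), passing without the second mismatch array (0.29, adjusted p = 0.0302). APEX1, the endonuclease at sites that have lost a base, was higher at 2416, 2418 and 2450 with match and 2480, 2353 and 2306 with mismatch against 2117, 2132 and 2038. The rises were small, 0.21 (SE 0.05, adjusted p = 0.00422) and 0.18 (SE 0.05, adjusted p = 0.0172), and the second was lost without the third dexamethasone array (adjusted p = 0.0693) or the first mismatch array (0.0880).

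OGG1, the glycosylase for oxidized guanine, was called lower in match than in mismatch (-0.56, SE 0.18, adjusted p = 0.0370), but its arrays, at 134, 87.3 and 117 against 119, 200 and 212, overlapped. That call was lost without the second match array (-0.41, adjusted p = 0.181), the third (-0.60, 0.0607), the second mismatch array (-0.46, 0.151) or the third (-0.42, 0.176). Against dexamethasone, OGG1 differed by -0.46 with match (adjusted p = 0.0602), and it passed without the first match array (-0.58, adjusted p = 0.0309), the first mismatch array (0.0231) or the third non-treated array (0.0444). PARP1, the main enzyme of its family, and XRCC1, the scaffold it recruits, passed in no comparison, with changes of -0.12 to 0.12.

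End joining held 3 of the falls seen with both polyamides, in the ligase scaffold XRCC4, in XRCC5 (Ku80), which grips the end with XRCC6 (Ku70), and in PRKDC, the catalytic subunit of the DNA-dependent kinase. XRCC4 signals were 115, 127 and 99.4 with dexamethasone, 30.9, 50.2 and 46.4 with match and 59.8, 68.1 and 71.9 with mismatch, with no overlap between the 3 sets. XRCC4 fell by 1.16 with match (SE 0.14, adjusted p = 1.2e-06, 2.23-fold) and by 0.65 with mismatch (SE 0.14, adjusted p = 0.00145). Match lay below mismatch by -0.51 (adjusted p = 0.0129), a call lost without the first match array (-0.36, adjusted p = 0.0800) or the third mismatch array (0.0541). Of its other tested probe sets, 2 were lower with match, at -2.16 and -1.38, and 1 was higher with mismatch, at 0.69, the opposite of the call above.

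XRCC5 signals were 3442, 3319 and 3472 with dexamethasone, 2185, 2369 and 2185 with match and 3010, 3029 and 2883 with mismatch. The 3 sets do not overlap, and the match arrays lay below every other array. XRCC5 differed by -0.60 with match (SE 0.05, adjusted p = 2.8e-09), by -0.20 with mismatch (SE 0.05, adjusted p = 0.00337) and by -0.40 between the polyamides (SE 0.05, adjusted p = 3.8e-06). On signals as deposited the sign with mismatch turned, to 0.04 (adjusted p = 0.870), where the median of all genes was 0.20, and the call was also lost with trimmed-mean scaling (-0.15, 0.0900), median centring (-0.06, 0.666) and spike-in scaling (-0.05, 0.886). XRCC5 had 3 tested probe sets, and a second was lower in all 3 comparisons, at -0.84, -0.58 and -0.27. By the mean of its tested probe sets XRCC5 was not called with mismatch (-0.19, adjusted p = 0.0984 by limma). Nor was it called between the polyamides by that mean (-0.20, 0.0981) or with spike-in scaling (-0.32, 0.176). XRCC6, the partner of XRCC5, was higher with match, at 2643, 2638 and 2711 against 2347, 2421 and 2379 (0.16, SE 0.05, adjusted p = 0.0280). That call was lost without the first or the third dexamethasone array (adjusted p = 0.0806 and 0.0642) or the second or the third match array (0.0511 and 0.0834). It was also lost on signals as deposited (0.19, adjusted p = 0.329), with trimmed-mean scaling (0.15, 0.136) and with median centring (0.09, 0.514). Without the variance trend (0.16, 0.173) and by the mean of its tested probe sets (0.20, 0.0944) it was lost too.

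PRKDC signals were 1184, 909 and 875 with dexamethasone, 609, 653 and 556 with match and 546, 683 and 611 with mismatch. The polyamide groups overlapped each other and lay below every dexamethasone array, by -0.68 (SE 0.12, adjusted p = 1.6e-04) and -0.67 (SE 0.12, adjusted p = 3.5e-04). Match minus mismatch was -0.01 for PRKDC, with a 95% interval of -0.27 to 0.24. LIG4, the ligase that XRCC4 carries, passed in no comparison, at 0.17 with match (95% interval -0.12 to 0.46) and 0.00 with mismatch (-0.29 to 0.29).

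Changes were also set against gene span, the length of genome from a gene's start to its end. Spans, taken as lengths from RefSeq GRCh38.p14, had a median of 54.1 kb (2.54 to 297) for the 37 genes and of 26.9 kb for all genes. Of the 9 members of 100 to 300 kb, 6 were lower with match and 3 did not pass, with a median change of -0.54, where 43.9% of all 2223 genes of that span were lower and 6.03% higher, with a median of -0.30. Of the 6 members of 10 to 30 kb, 3 were higher and 3 did not pass, with a median of 0.25, where 8.75% of all genes of that span were lower and 28.7% higher, with a median of 0.15. The 20 members of 30 to 100 kb had 6 lower and 3 higher, where 18.9% and 21.1% of all genes were. With mismatch, 3 of the 9 members of 100 to 300 kb were lower and 6 did not pass, where 32.3% of all genes of that span were lower and 4.99% higher, with a median of -0.06 against -0.18. Over the 37 genes the Spearman correlation of span with change was -0.68 for match, -0.55 for mismatch and -0.49 for match minus mismatch, against -0.31, -0.29 and -0.16 over 16194 genes. These are correlations across genes on the same arrays, and genes are not independent replicates.

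**Figure D3:**
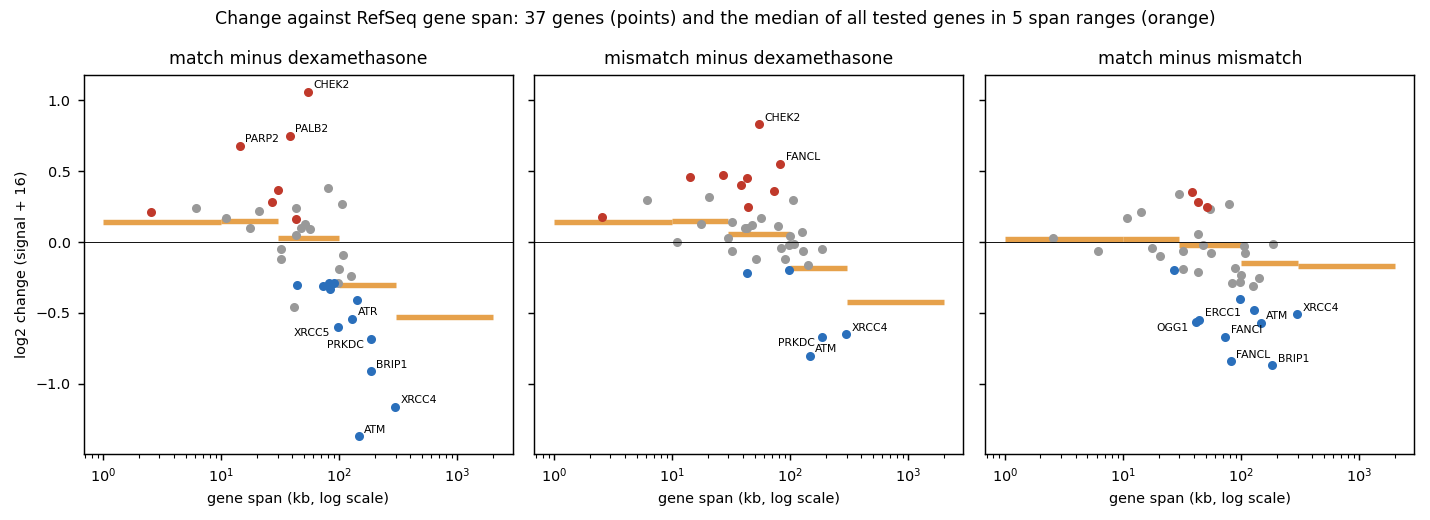
Difference of log2(signal + 16) against gene span (kb, log scale) for the 37 genes as points, red where called higher, blue where called lower and grey otherwise, with the median of all genes tested in 5 ranges of span as orange lines. XRCC4 (297 kb), BRIP1 (184 kb) and ATM (146 kb) lie below the line of all genes of 100 to 300 kb with match, and CHEK2 (54.1 kb), PALB2 (38.1 kb) and PARP2 (14.3 kb) lie above theirs.

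Further repair genes that are not among the 37 were read from a list of 86, of which 77 were tested. With match 35 (45.5%) were higher and 13 (16.9%) lower, where 21.6% and 17.6% of all genes were, and their median change was 0.20 against 0.05. With mismatch 28 (36.4%) were higher and 6 (7.79%) lower, where 18.0% and 11.9% of all genes were. The highest with match by adjusted p were NEIL3, a glycosylase of oxidized bases (1.47, adjusted p = 9.3e-11), ALKBH2, which reverses alkylated bases (1.29, 2.2e-10), and XPC and DDB2, which recognize lesions in nucleotide excision (1.23 and 0.92, at 6.6e-09 and 6.9e-09). With mismatch they were EXO1, a nuclease of mismatch repair and end trimming (0.93, adjusted p = 2.7e-08), DDB2 (0.88, 3.8e-08), ALKBH2 (0.72, 2.3e-06) and TDG, a glycosylase of mispaired thymine (0.69, 3.2e-06). In base excision 10 of 15 were higher with each polyamide. By contrast, all 3 further mismatch repair genes tested were lower with match, MSH3 by -1.14, PMS1 by -0.62 and MLH3 by -0.30, while MSH6 was higher. Those 3 were named after their values were seen.

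Of 10 repair genes known as responsive to p53, the transcription factor that ATM and CHEK2 act on, 8 were higher and 1 lower with each polyamide, and 1, XPC, was higher in match over mismatch (0.53, adjusted p = 7.7e-04). Of all genes 21.6% were higher and 17.6% lower with match, 18.0% and 11.9% with mismatch, and 9.48% were higher in match over mismatch. Of the 8, PCNA rose by only 0.13 with match and 0.19 with mismatch. GADD45A, also of the 8, was already higher with dexamethasone alone, by 1.58 over non-treated cells. PPM1D, the phosphatase that turns off ATM signalling, rose from 291 to 795 with match (1.40, adjusted p = 2.4e-12) and to 725 with mismatch (1.27, adjusted p = 4.9e-11). SESN1, a sestrin, rose by 1.12 (adjusted p = 1.3e-06) and 0.91 (3.5e-05). FANCC, a Fanconi core complex subunit, was the 1 lower gene, at -0.68 and -0.43. XPC, DDB2, POLH and FANCC stand in this list and in the one of 77, and PCNA stands in this list and in that of the proliferation genes. These lists were drawn up with results of these data known, so their counts are descriptions.

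Genes of proliferating cells were read from a list of 20. With match 10 (50%) were higher and 2 (10.0%) lower, where 21.6% and 17.6% of all genes were. With mismatch 5 (25%) were higher and 0 lower, where 18.0% and 11.9% of all genes were, and in match over mismatch 3 (15%) were higher and 3 lower, where 9.48% and 13.6% were. MKI67 was higher by 0.59 with match (adjusted p = 1.1e-04) and AURKA, a mitotic kinase, by 0.50 (2.2e-06) and by 0.32 with mismatch (7.0e-04). CDC6, which licenses replication origins, was higher by 0.48 and 0.52 (adjusted p = 1.3e-05 and 8.2e-06), and TYMS, the thymidylate synthase, was lower by -0.22 with match (8.5e-04). Their part in the changes of the repair genes was not tested.

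**Figure D4:**
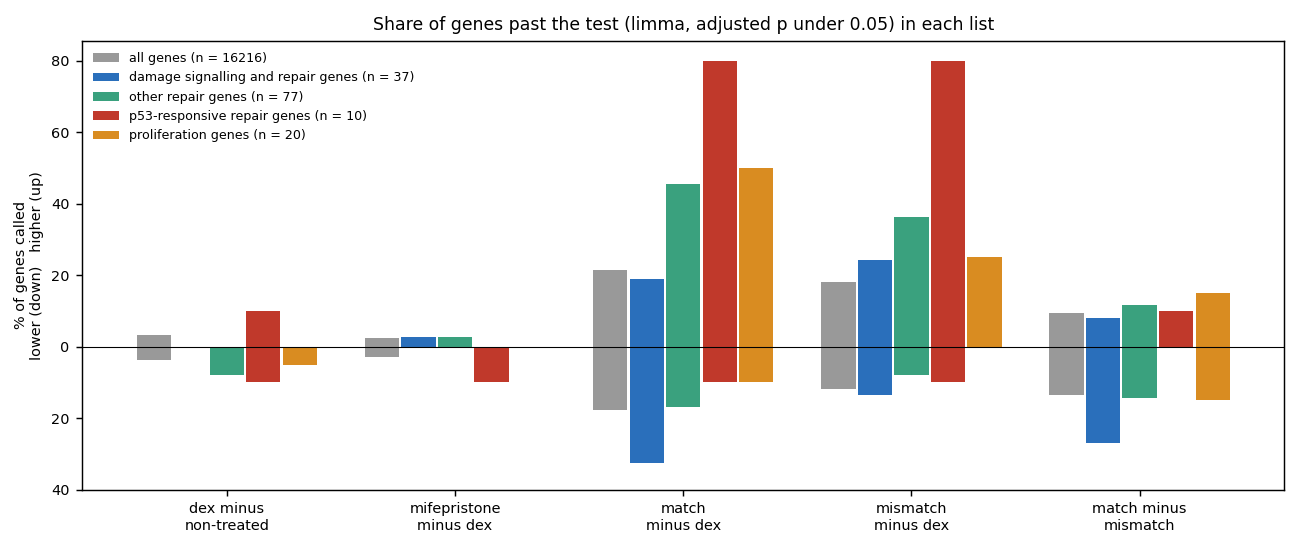
Percent of genes called higher (upward bars) and lower (downward bars) at an adjusted p under 0.05 (limma) in the 5 comparisons, for all 16216 genes tested, the 37 damage signalling and repair genes, 77 other repair genes, 10 p53-responsive repair genes and 20 proliferation genes. With match polyamide the 37 genes show 18.9% higher and 32.4% lower, and the 77 other repair genes 45.5% and 16.9%.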

How the data were processed

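The deposited value table holds linear intensity signals, which the authors made with MAS5 per the submitters' processing notes. The sources used here state neither its version nor its scaling target. There were 54675 probe sets, and 41097 of them carried 1 gene symbol, 1801 several and 11777 none in the platform annotation.

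Signals were quantile normalized because trimmed means (2%) differed between arrays, and log2(signal + 16) was taken. Control probe sets (62) were dropped, and probe sets above the 40th percentile of the array on at least 3 of 15 arrays were tested, 39744 (72.7%) in all. limma 3.58.1 (R 4.3.3) fitted a mean for each group to the 15 arrays together, with a variance trend (10 residual and 9.36 prior degrees of freedom) and Benjamini-Hochberg adjustment over the probe sets tested. The method was tested on simulated data. With 3 arrays per group, their number limits the precision.

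The genes and lists were chosen with earlier results of these data known. Every gene is counted. Values are given for called genes with separated arrays, up to 8 in each direction, for the most changed gene of each role, for uncalled genes where a role turns on them, and for up to 4 genes with the smallest adjusted p in the other lists. BRCA1, OGG1, MRE11 and NBN were described further after their values were seen. Alternatives were other scalings, pseudocounts, filters and variance models, the replicate number as a block, the mean of a gene's probe sets, and leaving out each array. Same-numbered arrays did not deviate together (r from -0.08 to 0.12 over 30 pairs, 2 of them over 0.1), so the numbers were not taken as pairs.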

Additional observations from a re-analysis of the deposited data

How the results depend on the processing

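Of the genes called, 7 of 19 with match (ATM, CHEK2, BRIP1, PALB2, PARP2, XRCC4 and XRCC5), 4 of 14 with mismatch (CHEK2, FANCL, MSH6 and PARP2) and 3 of 13 in match against mismatch (BRIP1, FANCI and FANCL) kept their call under all 27 alternatives. On signals as deposited the counts were 24 higher with mifepristone (26.7% of all genes), 3 higher and 6 lower with match, 1 lower with mismatch and 0 higher in match over mismatch, and the sign of XRCC5 with mismatch turned to 0.04. With spike-in scaling they were 28 higher with mifepristone (40.7% of all genes), 9 higher and 4 lower with match, 4 higher and 3 lower with mismatch (10.1% and 5.32% of all genes), and 0 higher and 3 lower in match over mismatch. With median centring they were 2 higher with mifepristone, 3 higher and 14 lower with match, 11 higher and 3 lower with mismatch, and 0 higher and 13 lower in match over mismatch. Of all genes 4.30% were then higher with mifepristone, 14.6% higher and 17.6% lower with match, 17.5% and 8.24% with mismatch, and 3.47% and 17.2% in match over mismatch. These scalings moved the median of all genes, to 0.38 (as deposited), 0.44 (spike-in) and 0.12 (median centring) with mifepristone, to 0.26 (spike-in) with match and to 0.20 (as deposited) with mismatch, and they also moved the split of all genes, which with spike-in scaling was 25.9% higher and 7.91% lower with match and 6.25% and 2.68% in match over mismatch. Relative to that median every called gene kept its sign under the 4 scalings. These differ from each other only by a factor or shift for each array, which moves genes nearly alike. They are therefore close to 1 check, not 4. Without the variance trend 0 genes were higher with mifepristone, 4 higher and 11 lower with match, and 7 higher and 3 lower with mismatch. Of all genes 1.71% were then higher with mifepristone, 19.7% higher and 16.4% lower with match, and 15.6% and 10.3% with mismatch. Without the filter 0 were higher with mifepristone, where 2.23% of all genes were. With the 6 arrays of a comparison alone 0 were higher with mifepristone and 1 lower with dexamethasone, where 2.18% and 3.46% of all genes were. With the mean of a gene's probe sets 11 were higher and 11 lower with match, and 1 was lower with dexamethasone, where 20.9%, 16.6% and 3.28% of all genes were. With the replicate number as a block 1 gene was lower with dexamethasone (FANCL, adjusted p = 0.0484) and 0 were higher with mifepristone (CHEK1, 0.0605), where 3.56% and 2.57% of all genes were. The other counts of calls were the same with that block. Leaving out 1 array at a time gave 0 to 1 lower with dexamethasone, 0 to 1 higher with mifepristone, 5 to 7 higher and 10 to 13 lower with match, 8 to 10 higher and 4 to 5 lower with mismatch, and 1 to 5 higher and 7 to 10 lower in match over mismatch, with 1 higher without the first match array and 5 without the second mismatch array. The cause of these shifts was not tested. Signal over background was not measured for these genes, of which RAD52 and ERCC6 had the lowest median percentiles.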

Other observations

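Of the 77 further repair genes, 6 (7.79%) were lower with dexamethasone than in non-treated cells and 0 higher by limma, where 3.63% and 3.23% of all genes were. At an unadjusted p under 0.05 by limma 14 were lower and 2 higher, where 1794 and 1145 of all 16216 genes were. Once mifepristone was added 2 (2.60%) were higher, where 2.55% of all genes were. NEIL3, the glycosylase, had a mean signal of 399 in non-treated cells, 147 with dexamethasone and 313 with mifepristone added, with differences of -1.34 (SE 0.09, adjusted p = 2.0e-09 by limma) and 1.01 (SE 0.09, adjusted p = 2.1e-07). Its mean with match polyamide, 438, and with mismatch, 241, were also above that with dexamethasone. MBD4, a glycosylase of mispaired bases, followed the same order at 479, 361 and 469 (-0.39 and 0.36, adjusted p = 0.00687 and 0.0177). GADD45A, a stress-induced partner of PCNA, had 149, 476 and 159 (1.58 and -1.49, adjusted p = 5.6e-11 and 3.8e-10), and both polyamides left it above the dexamethasone level, at 603 and 609 (0.33 and 0.34). The comparisons share the dexamethasone arrays, so the opposite signs are not independent.

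Among repair genes chosen after their values were seen, MGMT, which removes alkyl groups from guanine, had a mean signal of 72.3 with dexamethasone, 16.5 with match and 41.0 with mismatch (-1.45 and -0.67, adjusted p = 5.3e-06 and 0.0155). Its span is 304 kb. RAD54B, a motor protein of recombination, had 241, 101 and 149 (-1.12 and -0.63, adjusted p = 7.3e-06 and 0.00415).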
